A study of Mus musculus with 12 samples.

Results

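The prelimbic (PL) and infralimbic (IL) areas of the medial prefrontal cortex were compared gene by gene in mice that had received saline after fear conditioning. The comparison uses the 3 PL and the 3 IL libraries of saline-treated mice, 6 of the 12 libraries of the series, and covers the 20015 genes that passed a filter on low counts among the 55421 genes of the count table. These libraries were chosen by their labels, not by any measured value. Each library is polyA RNA from brain tissue taken 2 h after training of male wild-type C57BL/6 mice aged 10 to 12 weeks. All mice of the series had 3 pairings of a 120 s tone with a foot shock of 0.7 mA, and poor learners were left out per the labels' protocols. The saline group then had an intraperitoneal injection of normal saline at 10 ml per kg. The other 6 libraries, again 3 from PL and 3 from IL, come from mice given dexmedetomidine (Dex, a sedative agonist of alpha2 adrenergic receptors) at 40 µg per kg, and serve here only as separate libraries in which the same region difference was measured. No group of untrained mice was used, so training is common to every library. The titles give the region of each library, whereas the extraction protocol in the labels names PL tissue for all of them; the titles were followed. Neither the mice behind the libraries of a group, nor any mouse shared by PL and IL tissue of the same number, are named in the labels. P-values therefore measure only the spread between these libraries, which may be technical.

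PL and IL are neighbouring areas of the rodent medial wall that are often set against each other in work on fear memory, PL activity being tied to the expression of conditioned fear and IL activity to its extinction. Both hold layered glutamatergic projection neurons, GABAergic interneurons and glia, and lack a clear granular layer. IL lies ventral to PL, nearer to the septum, the ventral striatum and the olfactory part of the forebrain.

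Total counts were 6867249 to 8847876 in the PL saline libraries and 10603069 to 16530596 in the IL saline libraries, which did not overlap (exact permutation test, two-sided, p = 0.1, the smallest that 3 against 3 allows). The levels of GC-rich transcripts relative to GC-poor ones also differed without overlap. The slope of a library's log2 level on transcript GC content was −0.252, −0.308 and −0.0713 per 10 percentage points in PL saline and 0.0287, 0.0913 and 0.135 in IL saline (exact permutation test, two-sided, p = 0.1). Across genes, the median log2 fold change of PL against IL went from 0.32 in the tenth of genes with the lowest GC content to −0.36 in the tenth with the highest, whereas after Dex it went from 0.00 to −0.08. The long non-coding RNA Gm26917 took 0.824% ± 0.267 of the counts in PL saline and 1.92% ± 0.149 in IL saline (SD, n = 3). Their part in the results was not tested, and values after a correction for GC content are given below beside named calls that it ended. On the first principal component, PL saline library 1 scored 19.6, nearer to the IL saline libraries (−37.9 to −29.3) than PL saline libraries 2 and 3 (46.9 and 48.4).

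Between PL and IL after saline, 3737 of 20015 genes (18.7%) were past an adjusted p of 0.05 in edgeR's quasi-likelihood test with Benjamini-Hochberg adjustment, which is what a call means below. Of these, 1996 (9.97% of the genes tested) were higher in PL and 1741 (8.7%) were higher in IL. The counts of called list members below are to be read beside these shares. Large differences were mostly on the IL side. At least a 2-fold difference was seen for 257 genes higher in PL (1.28%) and 655 higher in IL (3.27%), and at least a 4-fold difference for 23 and 178. The median size of a called difference on the log2 scale was 0.55 for genes higher in PL and 0.81 for genes higher in IL. All 3 libraries of one region lay above all 3 of the other for 8067 genes (40.3%). Leaving out a saline library lowered the count of calls, to 1842 without PL library 2, 2128 without IL library 2, 2367 without IL library 1, 2413 without IL library 3, 2877 without PL library 3 and 3190 without PL library 1. With the correction for GC content 2674 genes were called (7.69% of the genes tested higher in PL and 5.67% higher in IL), of which 2056 were among the 3737.

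**Figure D1:**
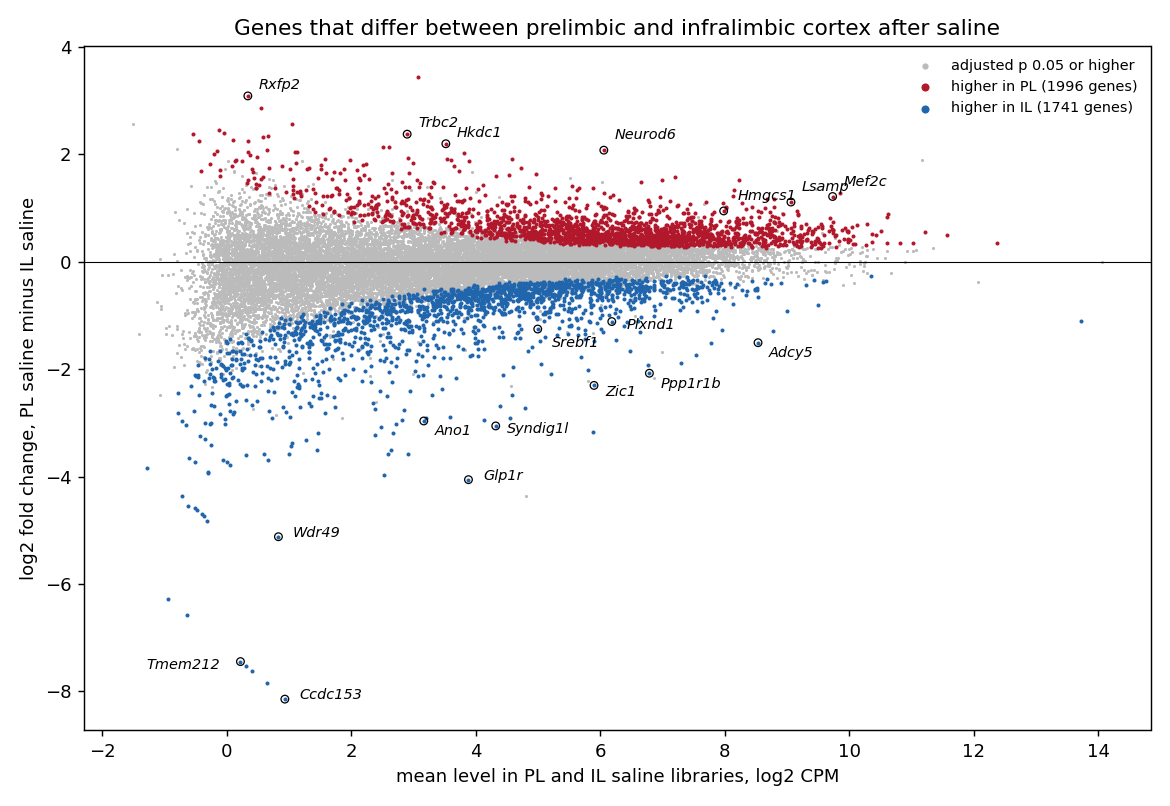
Each point is 1 of the 20015 genes, with its mean level in the 6 saline libraries (log2 CPM, horizontal) and its log2 fold change of PL minus IL (vertical). Coloured points are the 1996 genes higher in PL and the 1741 higher in IL, and the blue points reach further from 0 than the red ones. The lowest points are genes with 0 counts in PL, whose fitted values depend on the prior count.

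The clearest single gene on the PL side was Neurod6 (ENSMUSG00000037984, chromosome 6, 55677822 to 55681263 in GRCm38), a basic helix-loop-helix transcription factor of cortical glutamatergic neurons. Its level was 113, 106 and 105 CPM (read counts scaled to a common library size with TMM factors) in the PL libraries and 26.4, 25.7 and 24.8 CPM in the IL libraries. The groups lay far apart and the spread within each was small (log2 fold change 2.07, SE 0.163, adjusted p 9.9e-07). Deptor, an inhibitor of mTOR signalling found in deep-layer neurons, was at 66.2, 66.1 and 71.97 CPM in PL and 27.3, 22.6 and 26.8 CPM in IL (log2 fold change 1.41, SE 0.117, adjusted p 9.9e-07). Necab1, a neuronal calcium-binding protein, was at 178, 209 and 179.8 CPM in PL against 72.05, 67.9 and 57.96 CPM in IL (log2 fold change 1.52, SE 0.139, adjusted p 2.91e-06). The next smallest p-values on this side belonged to Lsamp, a limbic cell adhesion molecule (log2 fold change 1.11, adjusted p 2.91e-06), to Grm8, a presynaptic metabotropic glutamate receptor (log2 fold change 1.38, adjusted p 2.91e-06), and to Pde1a, a calmodulin-dependent phosphodiesterase (log2 fold change 1.08, adjusted p 3.17e-06). For all 3 genes every PL library was above every IL library, which was a condition for naming genes by p-value. Pde1a, for example, was at 339, 349 and 334 CPM against 149, 159.7 and 174 CPM.

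By size, the largest differences toward PL were, besides Neurod6, mostly in genes of lower level. Rxfp2, a relaxin-family peptide receptor, was at 1.97, 2.58 and 2.29 CPM in PL and 0.1799, 0.346 and 0.238 CPM in IL (log2 fold change 3.08, SE 0.6803, adjusted p 0.00394). H60b, a ligand of the NKG2D immune receptor, had log2 fold change 2.86, adjusted p 0.000984. Trbc2, a constant segment of the T cell receptor beta chain with a near-identical copy (Trbc1) that makes its counts uncertain, was at 11.1, 13.6 and 12.7 CPM in PL and 4.41, 1.59 and 1.49 CPM in IL (log2 fold change 2.37, SE 0.364, adjusted p 0.000298). Every PL library of these genes was above every IL library. This was a condition for naming genes by size, and 40.3% of all genes had groups that did not overlap. Hkdc1, a hexokinase-like enzyme, stood at 13.5, 22.1 and 20.9 CPM in PL and 4.86, 2.698 and 4.88 CPM in IL (log2 fold change 2.19, SE 0.2598, adjusted p 2.67e-05). Krt80, a keratin, gave log2 fold change 2.13, adjusted p 4.34e-05. The remaining genes of the 12 with the largest difference, Neurod6 among the 12, with their log2 fold changes, were Dmrt2 (2.34), Fap (2.14), Itprid1 (2.05), Aldh1a7 (2.04), CT025671.1 (1.94) and Zfp804b (1.93). The call of Aldh1a7 ended without IL library 2 or PL library 2 (adjusted p up to 0.0609) and that of CT025671.1 without IL library 2 or 3 or PL library 2 (up to 0.113). CT025671.1 was not tested with the 6 saline libraries alone. Over the alternatives that tested them, the log2 fold changes of Aldh1a7 and CT025671.1 stayed between 1.68 and 2.48 and between 1.54 and 2.302.

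Genes of cortical glutamatergic neurons were higher in PL. Of 10 markers shared by these neurons, 5 were called higher in PL, beside 9.97% of all genes tested, and 0 higher in IL, beside 8.7%. All 10 fold changes were positive, with a median of 0.52, beside −0.02 over all genes tested. After the GC correction 9 of the 10 were called higher in PL. Nrn1, which encodes the activity-regulated protein neuritin, reached 57.9, 74.02 and 86.6 CPM in PL and 31.6, 33.6 and 44.2 CPM in IL (log2 fold change 0.998, SE 0.168, adjusted p 0.000606). Tbr1, a T-box factor of deep-layer neurons, was at 156, 154 and 171 CPM against 73.04, 77.3 and 96.3 CPM (log2 fold change 0.96, SE 0.171, adjusted p 0.00119). For both genes the lowest PL library was above the highest IL library. The vesicular glutamate transporter Slc17a7, a defining marker that is abundant in both areas, was at 939, 901 and 1195 CPM in PL and 629, 657 and 943 CPM in IL. It was not called (log2 fold change 0.44, adjusted p 0.1403), but with the replicate number as a block it was (adjusted p 0.0121), and likewise after the GC correction (0.0109). Nrgn, which encodes the synaptic calmodulin-binding protein neurogranin, was called (log2 fold change 0.504, adjusted p 0.0273), but the call ended without IL library 1 or 2 or PL library 3 or with the 6 saline libraries alone (adjusted p up to 0.158). In bulk tissue, fewer cells of a type and less RNA per cell cannot be told apart.

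By layer, most calls toward PL were in markers of deep corticofugal neurons. Of 10 markers of layer 6 corticothalamic neurons, 6 were called higher in PL and 0 higher in IL (median 0.398). The first count was 2 to 3 without IL library 1, 2 or 3 or PL library 1 or 2. Rprm, a cell cycle regulator used as a layer 6 marker, was at 37.8, 37.9 and 39.6 CPM in PL and 17.00, 13.1 and 20.3 CPM in IL (log2 fold change 1.19, SE 0.153, adjusted p 4.82e-05). Zfpm2, a zinc finger cofactor of GATA factors, was at 37.05, 48.3 and 45.9 CPM and 26.4, 22.5 and 18.6 CPM (log2 fold change 0.97, SE 0.162, adjusted p 0.000481). Both held in each of the 13 alternative analyses, whereas the calls of Tle4, Sulf1, Hs3st4 and Garnl3 ended under at least 1 of them (adjusted p up to 0.178), that of Garnl3 among others after the GC correction (adjusted p 0.116). Of 9 tested markers of layer 5 extratelencephalic neurons, 5 were higher in PL and 1 in IL (median 0.48), the first count being 3 without IL library 2 or 3 or PL library 2 or 3. Fezf2, the factor that specifies these neurons, was at 29.3, 29.6 and 41.1 CPM in PL and 16.6, 13.4 and 12.97 CPM in IL (log2 fold change 1.22, SE 0.177, adjusted p 0.000145). Ldb2 and Tox, a LIM-domain cofactor and an HMG-box factor, followed with log2 fold change 1.38, adjusted p 0.01001 and log2 fold change 0.96, adjusted p 0.00147. Bcl11b (Ctip2) is a layer 5 factor that striatal neurons also express, and it went the other way, at 199, 110.3 and 127 CPM in PL and 219, 246 and 229.7 CPM in IL (log2 fold change −0.67, SE 0.156, adjusted p 0.00651; adjusted p 0.0765 with the 6 saline libraries alone). PL saline library 1 was the PL library nearest to IL for Bcl11b. The summed level of the layer 5 extratelencephalic list overlapped between the areas (459 to 489 CPM in PL, 448 to 479 CPM in IL). That of the layer 6 corticothalamic list did not (579 to 640 CPM and 450 to 499 CPM).

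Among the other cortical layer lists calls went both ways in 3 of 5. The 9 tested markers of layer 4 and 5 intratelencephalic neurons gave 3 calls toward PL (Deptor, Etv1 and Il1rapl2) and 1 toward IL. The latter was the epithelial sodium channel subunit Scnn1a, at 0.152, 0.468 and 0.604 CPM in PL and 1.53, 2.49 and 2.32 CPM in IL (log2 fold change −2.296, SE 0.544, adjusted p 0.00629). All 4 calls held in every alternative, that of Scnn1a included. Summed, this list was at 452 to 471 CPM in PL and 317 to 351 CPM in IL. Among 10 layer 2/3 markers 2 were higher in PL and 1 in IL. The homeobox pair split. Cux2 had log2 fold change 0.55, adjusted p 0.0185, a call that ended without IL library 1 or 2 or PL library 3 (adjusted p up to 0.09698). Cux1 had log2 fold change −0.54, adjusted p 0.002996, and its call held in every alternative. Of 6 markers of near-projecting neurons, whose fold changes were all positive, Vwc2l was called (log2 fold change 0.89, adjusted p 0.00164). Layer 6b markers gave 1 call toward PL, Cplx3, and 2 toward IL, Svil and Drd1. Cplx3, a complexin, had log2 fold change 0.77, adjusted p 0.0455, and its call ended with the replicate block (adjusted p 0.0516) and without any library but IL library 2 (up to 0.1497). Of 9 genes of the claustrum and endopiriform nucleus, Gng2 was called (log2 fold change 0.66, adjusted p 0.000302, higher in PL).

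**Figure D2:**
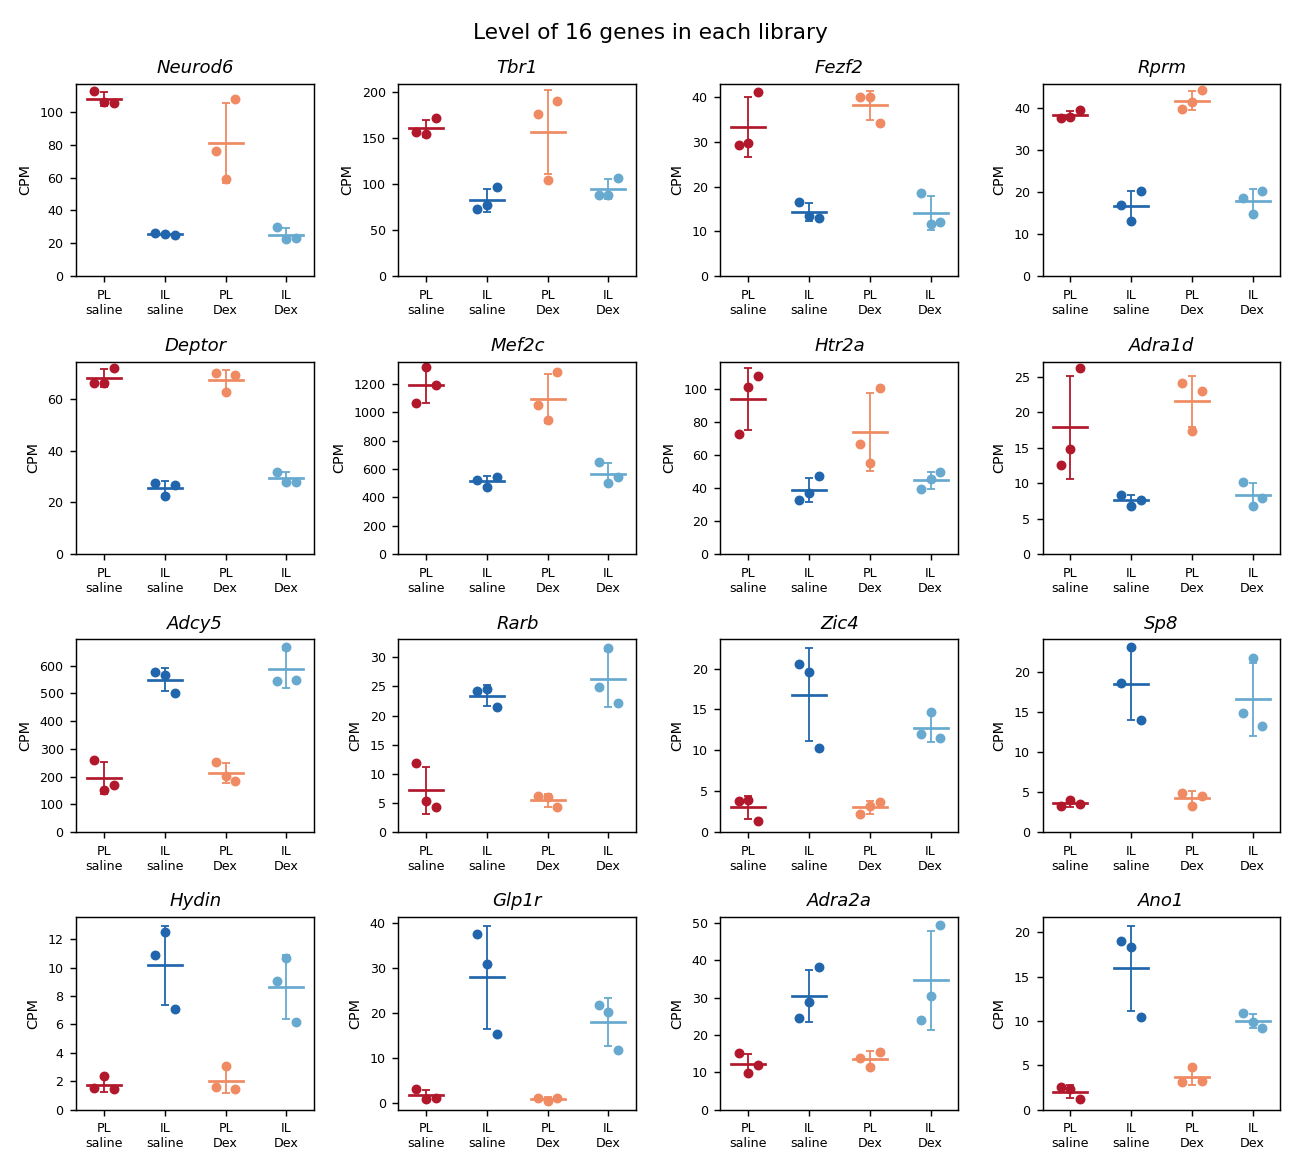
Level (CPM, vertical) of 16 genes in each of the 12 libraries, by region and treatment. Points are libraries, horizontal lines are group means and bars are SD (n = 3). The first 8 genes are higher in PL saline and the last 8 in IL saline. Their saline groups do not overlap, as for 40.3% of all genes tested.

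A list of 40 transcription factors that pattern the cortex or define its projection neurons gave 12 calls toward PL and 6 toward IL, with a median of 0.33. In every alternative analysis 13 of these 18 calls held. Mef2c, an activity-regulated MADS-box factor, was at 1067, 1316 and 1189.6 CPM in PL and 523, 474 and 547 CPM in IL (log2 fold change 1.21, SE 0.122, adjusted p 4.41e-06). Lmo4, a LIM-only cofactor involved in cortical arealisation, was at 198, 199 and 219.7 CPM and 107, 84.7 and 106 CPM (log2 fold change 1.05, SE 0.133, adjusted p 4.34e-05). Tshz3 and Etv1, a teashirt zinc finger and an ETS factor of layer 5, followed (log2 fold change 1.12, adjusted p 0.00394 and log2 fold change 0.92, adjusted p 0.000197). On the IL side stood Pax6, which patterns the forebrain and is kept in adult neural progenitors, at 8.81, 9.02 and 8.82 CPM in PL and 17.3, 21.3 and 18.9 CPM in IL (log2 fold change −1.11, SE 0.185, adjusted p 0.0004700). Dach1, a nuclear cofactor of retinal and forebrain progenitors, had log2 fold change −1.404, adjusted p 0.00155, and Meis2, a homeobox factor of striatal and olfactory neurons, had log2 fold change −0.67, adjusted p 0.00519. Pbx3, a homeobox partner of Meis proteins, was at 18.4, 5.74 and 6.400 CPM in PL and 35.8, 53.3 and 26.5 CPM in IL (log2 fold change −1.96, adjusted p 0.0267), and its call ended without IL library 1 or 2 or PL library 2 or 3, with no filter on low counts or with the 6 saline libraries alone (adjusted p up to 0.0988).

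On the IL side, 8 of the 12 largest differences were in genes of cilia, described below. Glp1r, the receptor for glucagon-like peptide 1 (ENSMUSG00000024027, chromosome 17, 30901817 to 30940791), was at 3.19, 0.8198 and 1.21 CPM in PL and 37.5, 30.7 and 15.3 CPM in IL (log2 fold change −4.06, SE 0.4502, adjusted p 8.14e-05). Cd4, known as a T cell co-receptor, was at 1.97, 0.234 and 0.725 CPM in PL and 11.9, 11.6 and 9.64 CPM in IL (log2 fold change −3.58, SE 0.524, adjusted p 0.000405). In both, the lowest IL library was several times the highest PL library. The calcium-activated chloride channels Ano1 and Ano2 were among the 6 smallest p-values. Ano1 was at 2.58, 2.34 and 1.21 CPM in PL and 19.1, 18.3 and 10.4 CPM in IL (log2 fold change −2.97, SE 0.296, adjusted p 4.17e-06), and Ano2 at 2.43, 1.17 and 1.33 CPM and 12.8, 13.9 and 10.6 CPM (log2 fold change −2.95, SE 0.293, adjusted p 4.17e-06). Cacna2d2, an auxiliary subunit of voltage-gated calcium channels, was at 40.2, 25.4 and 29.6 CPM in PL and 99.6, 89.6 and 76.2 CPM in IL (log2 fold change −1.48, SE 0.146, adjusted p 4.12e-06). Actn2, an actin crosslinker of dendritic spines, and Myo3b, a class III myosin, had log2 fold change −1.67, adjusted p 5.23e-06 and log2 fold change −2.75, adjusted p 1.28e-05. Reads were counted without strand, so counts of Cacna2d2, Myo3b, Necab1, Deptor and Krt80 may hold reads of the overlapping genes Gm17141, Gm13631, Gm11837, Gm9920 and Gm35853. The same limit applies to other genes named in the text, and not all of them are listed here. The exons of Zic1 and Zic4 overlap each other. Exons of Rarb overlap Top2b, those of Nrn1 Fars2, of Ppp1r1b 1700003D09Rik and of Hydin Gm26832. Notch3, Dlx1, Cux1 and Tox overlap Gm17276, Dlx1as, Gm16599 and Gm11802. Besides the cilia genes, the 12 largest differences toward IL were those of Glp1r, Cd4, Adamts19 and Tpi-rs9. Tpi-rs9, a copy of the triosephosphate isomerase gene whose counts are uncertain for that reason, was at 0.607, 0 and 0 CPM in PL and 2.698, 2.08 and 2.08 CPM in IL (log2 fold change −3.605, adjusted p 0.00277). Adamts19, a secreted metalloprotease, had log2 fold change −3.69, adjusted p 0.0319, and its call ended without IL library 2 or 3 or PL library 2 or 3 (adjusted p up to 0.135).

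Markers of striatal medium spiny neurons, the projection neurons of the caudate-putamen and accumbens, were higher in IL. Of 20 such markers 13 were called higher in IL and 0 higher in PL, with a median of −1.997 and no positive fold change. Adcy5, the main adenylyl cyclase of striatal neurons, was at 259.6, 150.1 and 171 CPM in PL and 579, 568 and 503 CPM in IL (log2 fold change −1.51, SE 0.173, adjusted p 5.89e-05). Rarb, a retinoic acid receptor, was at 11.8, 5.27 and 4.35 CPM in PL and 24.3, 24.6 and 21.4 CPM in IL (log2 fold change −1.74, SE 0.262, adjusted p 0.000257). In both genes PL saline library 1 was the highest of the PL libraries. Ppp1r1b, which encodes the dopamine-regulated phosphatase inhibitor DARPP-32, was at 66.4, 26.4 and 35.6 CPM in PL and 187, 197 and 153 CPM in IL (log2 fold change −2.08, SE 0.376, adjusted p 0.00594). The dopamine receptor Drd2 showed the same unevenness more strongly, at 15.6, 0.8198 and 1.21 CPM in PL and 46.3, 46.2 and 31.4 CPM in IL (log2 fold change −2.92, SE 0.811, adjusted p 0.0397). Its call ended without IL library 1, 2 or 3 or PL library 2 or 3, with no filter on low counts, with the 6 saline libraries alone or after the GC correction (adjusted p up to 0.116, and 0.0647 after the GC correction). Drd1 was at 63.9, 31.4 and 20.6 CPM in PL and 93.8, 102 and 78.4 CPM in IL (log2 fold change −1.25, adjusted p 0.0419), and that call ended without IL library 1, 2 or 3 or PL library 2 or 3, with no filter on low counts or with the 6 saline libraries alone (adjusted p up to 0.146). Summed over the 20 genes, the level was 1618, 715 and 738 CPM in PL libraries 1 to 3 and 2804, 2849.5 and 2339.7 CPM in IL libraries 1 to 3. The count called higher in IL was 7 to 20 without IL library 1 or 2 or PL library 1, 2 or 3. Without PL saline library 1 all 20 markers were called higher in IL and the median was −2.75.

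Septal genes and genes of olfactory bulb neurons and migrating neuroblasts went the same way. Of 8 septal genes tested, 6 were called higher in IL and 0 in PL (median −1.66), and 3 of these calls held in every alternative. Zic4, a zinc finger factor of the septum, was at 3.796, 3.86 and 1.33 CPM in PL and 20.6, 19.6 and 10.2 CPM in IL (log2 fold change −2.49, SE 0.324, adjusted p 6.89e-05). Its relatives Zic1 and Zic5 had log2 fold change −2.304, adjusted p 0.00569 and log2 fold change −1.56, adjusted p 0.00302. The Zic1 call ended with the 6 saline libraries alone (adjusted p up to 0.0512). The call of Zic2 ended after the GC correction (adjusted p 0.0510). That of Nts ended under several alternatives, DESeq2 among them (adjusted p up to 0.0924). Trpc4, a cation channel of lateral septal neurons that cortex also expresses, was at 35.7, 31.4 and 27.9 CPM in PL and 61.8, 64.5 and 55.3 CPM in IL (log2 fold change −0.94, SE 0.121, adjusted p 4.98e-05). Of 10 tested genes of olfactory neurons and neuroblasts, 7 were higher in IL and 0 in PL (median −1.47), and 6 of these calls held in every alternative. Sp8, a zinc finger factor of olfactory interneurons, was at 3.19, 3.98 and 3.502 CPM in PL and 18.5, 23.04 and 13.98 CPM in IL (log2 fold change −2.37, SE 0.249, adjusted p 5.97e-06). The neuroblast gene Igfbpl1 was at 1.21, 0.468 and 1.33 CPM in PL and 14.7, 12.7 and 6.96 CPM in IL (log2 fold change −3.51, SE 0.503, adjusted p 0.000253). The homeobox genes Dlx1, Dlx2 and Dlx6, which GABAergic neurons of the forebrain share, had log2 fold changes of −1.103, −1.85 and −1.59 (adjusted p 0.000125, 0.000198 and 0.000181). Cdhr1, a cadherin of mitral cells, had log2 fold change −1.93, adjusted p 0.04396, and its call ended with the replicate block (adjusted p 0.0578), after the GC correction (0.0738) and without IL library 2 or 3 or PL library 2 or 3 (up to 0.164). The summed levels of the septal list were 46.1 to 92.02 CPM in PL and 155 to 255 CPM in IL, and those of the olfactory list 177 to 212 CPM and 291 to 403 CPM. The part that these marker levels have in the genes called higher in IL was not tested.

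**Figure D3:**
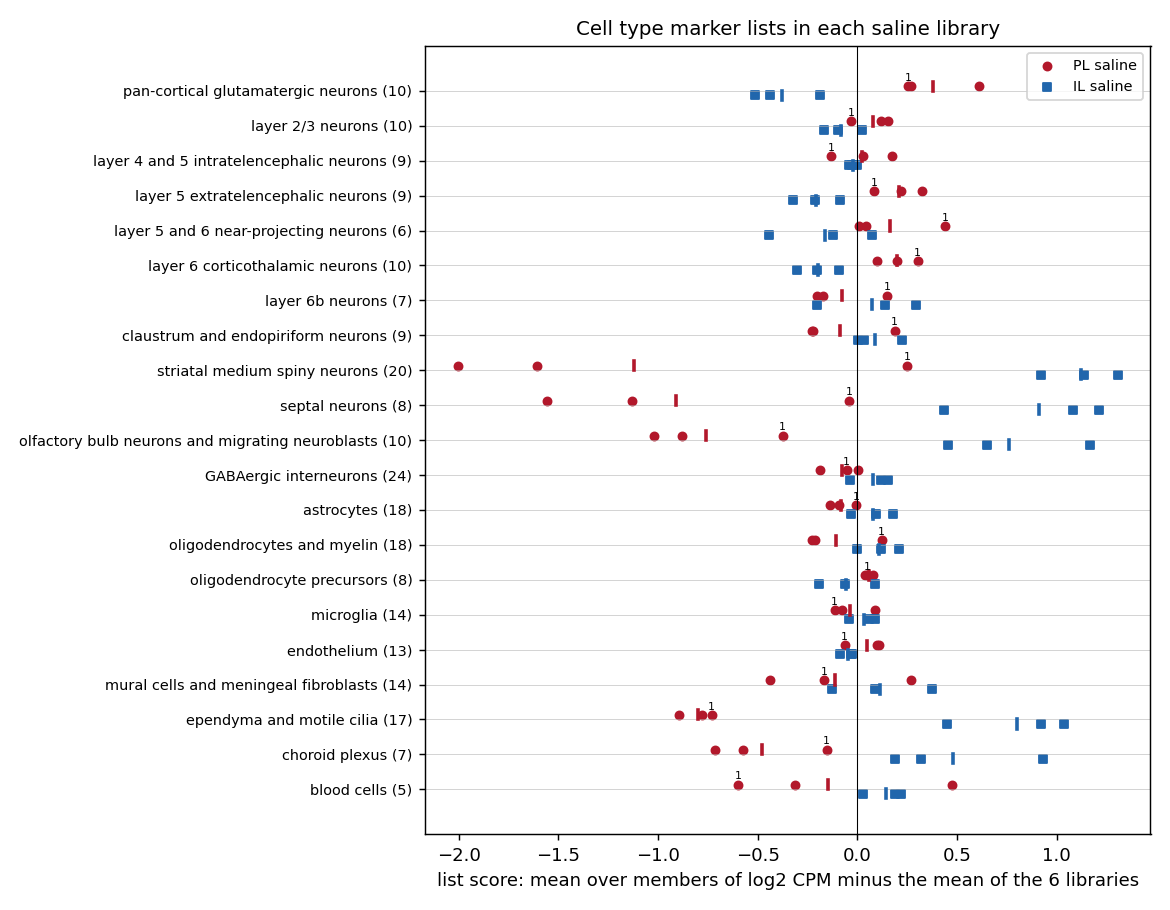
Score of 21 cell type marker lists in each saline library, computed as each member's log2 CPM less its average in the 6 saline libraries, averaged over members; the number of genes tested is in brackets, bars mark group means and "1" marks PL saline library 1. That library scored 0.25 for striatal genes, against −2.003 and −1.61 in the other PL libraries and 1.14, 1.305 and 0.92 in IL.

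Genes of motile cilia, which in the brain are carried by the ependymal cells lining the ventricles, were higher in IL, and several had no count in PL. Of 17 tested members of the list, 10 were called higher in IL and 1 higher in PL (median −1.57), and after the GC correction 10 and 0. Foxj1, described below, was in the first count of 10 but not in the second. Of the 11 calls, 6 held in every alternative, all toward IL. The median is the same with the members that had no count in PL set at the bounds below. Ccdc153 (ENSMUSG00000070306, chromosome 9, 44240676 to 44247306), a coiled-coil gene of ependymal cells, had 0 counts in all 3 PL libraries and 3.96, 4.497 and 3.03 CPM in IL. Against a floor of 3 counts over the PL group it was at least 29.5-fold higher in IL (adjusted p 8.87e-05). Tmem212, an ependymal membrane protein, also had 0 counts in PL and 1.89, 2.56 and 2.56 CPM in IL, at least 18.6-fold higher (adjusted p 7.66e-05). Outside the list, Ccdc180, Crocc2 and Ccdc170, further coiled-coil or rootlet genes, had 0 counts in PL and were at least 23.2-, 20.3- and 18.96-fold higher in IL (adjusted p 0.000147, 0.000313 and 0.000144). Wdr49 had 2 counts in PL and 140 in IL, a ratio of 38.7 with a 95% counting interval of 10.5 to 322 (adjusted p 0.000153). In the Dex libraries Ccdc180 was again at 0 CPM in PL and at 1.25, 0.90 and 2.31 CPM in IL (adjusted p 0.00207). Its fitted fold change there depends on the prior count and is not given. Ccdc170 was there at 0.68, 0.29 and 0.14 CPM in PL (log2 fold change −1.77, adjusted p 0.112). Crocc2 was there at 0.41, 0.58 and 0 CPM in PL (log2 fold change −2.28, adjusted p 0.0672).

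Structural components of the ciliary axoneme showed the same order. Hydin, a protein of the central apparatus, was at 1.52, 2.34 and 1.45 CPM in PL and 10.9, 12.5 and 7.08 CPM in IL (log2 fold change −2.495, SE 0.329, adjusted p 5.87e-05). Dnah12, an axonemal dynein heavy chain, was at 1.21, 1.41 and 1.57 CPM in PL and 9.62, 10.8 and 6.13 CPM in IL (log2 fold change −2.64, SE 0.395, adjusted p 0.000187). Dnah6, another such chain, had log2 fold change −3.58, adjusted p 2.78e-05, with exons that overlap Gm20560. Dnah11, again a dynein chain, whose exons overlap Cdca7l, had log2 fold change −3.98, adjusted p 0.0183, and the call ended without PL library 1, 2 or 3 (adjusted p up to 0.0696). Spag17, of the same central apparatus, had 3 counts in PL against 77 in IL (ratio 14.2, 95% counting interval 4.67 to 70.2), and the adenylate kinase Ak7 had log2 fold change −2.71, adjusted p 0.00349. Foxj1, the forkhead factor that switches on the motile cilia programme, was at 2.13, 1.05 and 2.898 CPM in PL and 7.47, 6.64 and 4.11 CPM in IL (log2 fold change −1.57, SE 0.404, adjusted p 0.0106). Its call ended without PL library 2, after the GC correction or after the GC correction with the block (adjusted p up to 0.0755, and 0.0551 after the GC correction). Ccdc39, the member called higher in PL, also has the highest level of the list, at 40.7, 39.8 and 39.8 CPM in PL and 32.02, 30.7 and 28.98 CPM in IL (log2 fold change 0.39, adjusted p 0.0338). Its call ended without each of the 6 libraries in turn, after the GC correction and with no filter on low counts (adjusted p up to 0.521). Of the choroid plexus list, Prlr, the prolactin receptor, and Otx2, a homeobox factor, were called higher in IL. Prlr had log2 fold change −2.21, adjusted p 0.0008697. Otx2 had 3 counts in PL and 58 in IL (ratio 10.7, 95% counting interval 3.48 to 53.3, adjusted p 0.0136), and its call ended without PL library 2 or 3 (adjusted p up to 0.0848). It was not tested with the 6 saline libraries alone or without IL library 1 or 2. Ttr, the gene that defines the choroid plexus, was not called (log2 fold change −0.91, adjusted p 0.556). The choroid plexus list summed to 9.18 to 16.1 CPM in PL and 18.6 to 29.5 CPM in IL, and the cilia list to 60.4 to 63.6 CPM and 75.6 to 109 CPM.

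Promoters of cilia genes are known to carry the X-box bound by RFX factors and sites for forkhead factors, so the 250 bases before the RefSeq start were searched on both strands. The X-box core GTTGCC was found in 7 of 22 promoters of the cilia list (31.8%; 16 of 20 genes had a promoter in the RefSeq table, some more than 1) and in 10.4% of 32851 promoters of all genes. The forkhead site TGTTTAC was found in 3 of the 22 (13.6%) and in 3.17% of all. Neither motif contains the other. A match describes the letters of the sequence and nothing more. Among the 9 called genes of the list with a promoter, 3 had the X-box core and 1 the forkhead site, and 4 of the 7 genes not called had the X-box core. The promoters of 3 genes called higher in IL are shown 5′ to 3′ (GRCm38.p6) with the matches in capitals, the X-box core in Ccdc153 and Hydin and the forkhead site in Ak7.
Ccdc153 (chr9:44240427-44240676, + strand): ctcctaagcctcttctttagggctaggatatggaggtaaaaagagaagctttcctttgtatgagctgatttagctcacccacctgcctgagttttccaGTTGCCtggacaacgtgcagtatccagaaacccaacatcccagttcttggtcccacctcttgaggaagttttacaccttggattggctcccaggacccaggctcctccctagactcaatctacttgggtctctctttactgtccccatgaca
Hydin (chr8:110266727-110266976, + strand): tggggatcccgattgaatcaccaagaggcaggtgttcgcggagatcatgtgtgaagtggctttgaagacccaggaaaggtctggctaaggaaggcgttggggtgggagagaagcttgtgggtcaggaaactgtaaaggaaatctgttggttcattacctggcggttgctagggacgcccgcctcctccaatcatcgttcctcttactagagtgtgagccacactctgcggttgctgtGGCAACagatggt
Ak7 (chr12:105705732-105705981, + strand): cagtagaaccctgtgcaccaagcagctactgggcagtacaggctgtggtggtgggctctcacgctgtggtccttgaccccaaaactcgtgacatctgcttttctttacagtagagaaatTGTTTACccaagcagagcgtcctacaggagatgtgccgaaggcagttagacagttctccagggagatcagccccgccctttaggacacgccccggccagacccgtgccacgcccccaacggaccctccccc

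GABAergic interneuron genes did not move together. Of 24 tested, 5 were called higher in IL and 3 in PL (median −0.08), beside 8.7% and 9.97% of all genes. The count toward IL was 3 to 8 without IL library 2 or PL library 1 or 2 and 8 with the replicate block. Slc32a1, the vesicular GABA transporter, was at 41.1, 19.6 and 34.5 CPM in PL and 77.1, 85.2 and 67.8 CPM in IL (log2 fold change −1.28, SE 0.194, adjusted p 0.0003698). Ndnf, a secreted protein of layer 1 neurogliaform cells, was at 30.7, 25.5 and 19.8 CPM in PL and 45.8, 73.8 and 72.01 CPM in IL (log2 fold change −1.34, SE 0.294, adjusted p 0.00897). Reln, the extracellular protein reelin of the same cells, had log2 fold change −0.64, adjusted p 0.000481. These 3 calls held in every alternative. Gad1, which makes GABA and is expressed by striatal and olfactory neurons too, had log2 fold change −0.62, adjusted p 0.0135, a call that ended without IL library 2 or PL library 2 or 3 (adjusted p up to 0.06897). The peptides Vip and Npy were called higher in PL (log2 fold change 0.84, adjusted p 0.0132 and log2 fold change 0.92, adjusted p 0.0118). The call of Vip ended without IL library 1 or 2 or PL library 2 or after the GC correction (adjusted p up to 0.128), and that of Npy without IL library 1 or 2 or PL library 3 (adjusted p up to 0.09604). Pvalb and Sst, which define the main interneuron classes, were not called (log2 fold change 0.41, adjusted p 0.346 and log2 fold change 0.22, adjusted p 0.462).

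Glial and vascular lists were mixed, beside 18.7% of all genes called. None of 18 oligodendrocyte and myelin genes was called, with log2 fold changes from −0.64 (Fa2h) to 0.17 (Tspan2). With the replicate block Fa2h, a lipid hydroxylase of myelin, was called (adjusted p 0.0208, higher in IL). Among 18 astrocyte genes 3 were called higher in IL and 1 in PL. Gfap, the astrocyte intermediate filament, held in every alternative, at 47.98, 47.9 and 34.4 CPM in PL and 84.01, 93.2 and 83.4 CPM in IL (log2 fold change −1.002, SE 0.155, adjusted p 0.000272). The glutamate transporter Slc1a2 had log2 fold change 0.34, adjusted p 0.0241 (0.24 and 0.0738 after the GC correction), and other defining astrocyte genes, Aqp4, Aldh1l1 and Gja1, were not called. After the GC correction Gja1 was called higher in IL (adjusted p 0.0168). Microglia gave 1 call of 14 (C1qa, toward IL), endothelium 1 of 13 (Slco1a4, toward PL), and both ended after the GC correction (adjusted p 0.497 and 0.178). Of 14 mural and meningeal genes tested, Notch3, a receptor of vascular smooth muscle, was higher in IL at 12.5, 8.78 and 15.8 CPM in PL and 23.7, 23.3 and 23.03 CPM in IL (log2 fold change −0.92, SE 0.206, adjusted p 0.00434), and so was Pdgfrb (log2 fold change −0.55, adjusted p 0.00974; 0.0953 after the GC correction). Oligodendrocyte precursor genes gave 1 call each way, Pcdh15 toward PL (log2 fold change 0.62, adjusted p 0.00321) and Cspg4 toward IL (log2 fold change −0.65, adjusted p 0.00712; 0.118 after the GC correction). No haemoglobin or other blood gene of 5 tested was called.

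Receptors for the monoamines were called in both directions. Htr2a, the Gq-coupled serotonin receptor of cortical pyramidal neurons, was at 72.9, 101 and 108 CPM in PL and 32.7, 37.1 and 47.2 CPM in IL (log2 fold change 1.27, SE 0.205, adjusted p 0.0008099). Its relative Htr2c was higher in IL, at 71.1, 36.8 and 35.1 CPM in PL and 75.8, 94.6 and 110.4 CPM in IL (log2 fold change −0.99, SE 0.253, adjusted p 0.0188). For Htr2c, PL saline library 1 lay close to the IL libraries, and the call ended without IL library 2 or 3 or PL library 2 or 3, with the 6 saline libraries alone or after the GC correction with the block (adjusted p up to 0.0919). Of 13 serotonin receptor genes tested 2 were higher in PL (Htr2a and Htr1f) and 2 in IL (Htr2c and Htr5b), beside 9.97% and 8.7% of all genes. Of these 4 Htr2a held in every alternative, Htr5b ended without IL library 3 or PL library 1 or 2 (adjusted p up to 0.0803), and Htr1f ended after the GC correction (log2 fold change 0.44, adjusted p 0.1801). All 3 alpha1 adrenergic receptors, which couple to Gq, were called higher in PL. Adra1a was at 59.8, 56.9 and 59.7 CPM in PL and 39.04, 31.96 and 30.3 CPM in IL (log2 fold change 0.803, SE 0.132, adjusted p 0.000407), and Adra1d at 12.6, 14.9 and 26.2 CPM and 8.37, 6.85 and 7.68 CPM (log2 fold change 1.24, SE 0.233, adjusted p 0.00124). Adra1b had log2 fold change 1.18, adjusted p 0.0414, which ended without IL library 1 or 2 or PL library 3 or with the 6 saline libraries alone (adjusted p up to 0.136).

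Adra2a and Adra2c, Gi-coupled alpha2 receptors of the class that dexmedetomidine activates, were higher in IL. Adra2a was at 15.2, 9.96 and 11.95 CPM in PL and 24.6, 28.8 and 38.1 CPM in IL (log2 fold change −1.32, SE 0.243, adjusted p 0.00149). Adra2c, which striatal neurons also express, was at 14.6, 5.04 and 9.78 CPM in PL and 23.5, 21.4 and 24.6 CPM in IL (log2 fold change −1.26, SE 0.244, adjusted p 0.00183). For both genes the IL libraries lay above all PL libraries, and both calls held in every alternative. The beta receptors Adrb1 and Adrb3 were not called (log2 fold change −0.04, adjusted p 0.911 and log2 fold change 0.18, adjusted p 0.741). The dopamine receptors Drd1 and Drd2 are given with the striatal genes, and Drd5 was not called (log2 fold change 0.93, adjusted p 0.05695), though it was with the replicate block (adjusted p 0.0491) and after the GC correction (0.0365).

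Acetylcholine receptors leaned to PL, with 4 of 12 tested called higher there and 1 higher in IL, beside 9.97% and 8.7% of all genes. After the GC correction 3 were called higher in PL and 0 in IL. Of the 5 calls, 2 held in every alternative, those of Chrna5 and Chrm3. Chrna5, the accessory nicotinic subunit of layer 6 neurons, was at 5.92, 8.67 and 7.37 CPM in PL and 2.43, 1.59 and 2.26 CPM in IL (log2 fold change 1.81, SE 0.279, adjusted p 0.000234). Chrm3, a Gq-coupled muscarinic receptor, was at 64.8, 72.8 and 83.4 CPM and 46.7, 35.8 and 52.01 CPM (log2 fold change 0.72, SE 0.138, adjusted p 0.00142). Chrna3 had log2 fold change 1.54, adjusted p 0.009297 and ended without IL library 2 (adjusted p up to 0.0549). The calls of Chrm2 and Chrm5 ended after the GC correction (adjusted p 0.0545 and 0.0656), among other alternatives. Chrm1, Chrna4, Chrna7 and Chrnb2, the more usual cortical receptors, were not called.

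Of 29 tested receptors for neuropeptides and cannabinoids, 8 were called higher in PL and 9 in IL, beside 9.97% and 8.7% of all genes. Of these calls 4 and 3 held in every alternative that tested them. Sstr5 was not tested with the 6 saline libraries alone. Toward IL, 3 to 5 without IL library 2 or 3 or PL library 2 or 3 were called. Toward PL, Oprd1, the delta opioid receptor, was at 32.8, 32.6 and 38.04 CPM in PL and 21.2, 19.6 and 19.3 CPM in IL (log2 fold change 0.79, SE 0.135, adjusted p 0.000574). Cckbr, the main brain receptor for cholecystokinin, was at 53.3, 51.2 and 56.2 CPM and 31.9, 26.3 and 33.03 CPM (log2 fold change 0.82, SE 0.147, adjusted p 0.000867). Hcrtr2, an orexin receptor, and Npy1r, a neuropeptide Y receptor, had log2 fold change 1.37, adjusted p 0.00153 and log2 fold change 0.67, adjusted p 0.00349. Toward IL, Tacr1, the substance P receptor, was at 5.77, 2.23 and 3.02 CPM in PL and 9.53, 14.2 and 10.00 CPM in IL (log2 fold change −1.65, SE 0.286, adjusted p 0.000635). The somatostatin receptor Sstr5 had 1 count in PL and 57 in IL (ratio 31.5, 95% counting interval 5.43 to 1265, adjusted p 0.00231). Adcyap1r1, the receptor for the peptide PACAP, had log2 fold change −0.47, adjusted p 0.00327. Oxtr, the oxytocin receptor, was at 10.5, 5.04 and 4.23 CPM in PL and 11.1, 16.1 and 20.6 CPM in IL (log2 fold change −1.31, adjusted p 0.0167), and the call ended without IL library 3 or PL library 2 or 3 or after the GC correction with the block (adjusted p up to 0.08902). Npy2r, a presynaptic neuropeptide Y receptor, had log2 fold change −1.08, adjusted p 0.00683 and ended without PL library 2 (adjusted p up to 0.0532), so that the pair Npy1r and Npy2r was called in opposite directions. Of 21 peptide genes tested, 3 were higher in PL and 2 in IL, both counts being 5 with the replicate block, and Chgb, a granin of dense-core vesicles, held in every alternative (log2 fold change 0.604, adjusted p 0.00251, higher in PL).

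GABA receptor subunits were higher in PL. Of 15 tested, 9 were called higher in PL and 1 higher in IL (median 0.403), and after the GC correction 7 and 1 were (median 0.200). Gabra3, an alpha subunit of ionotropic receptors, was at 214, 223 and 230.0 CPM in PL and 116, 112 and 126 CPM in IL (log2 fold change 0.91, SE 0.118, adjusted p 4.98e-05). Gabbr2, the signalling subunit of the metabotropic receptor, was at 328, 353 and 429.6 CPM and 222, 193 and 259 CPM (log2 fold change 0.72, SE 0.123, adjusted p 0.000562), whereas its partner Gabbr1 was not called (log2 fold change 0.00, adjusted p 0.987). Gabrb2, Gabrb1 and Gabra5 also held in every alternative, with log2 fold changes of 0.61, 0.54 and 0.68. Gabrd, of extrasynaptic receptors, was called higher in IL (log2 fold change −0.56, adjusted p 0.0106). After the GC correction it had log2 fold change −0.36, adjusted p 0.0561. The 1 call toward IL after the correction thus belonged to another gene of the list. The call of Gabrg3 toward PL also ended after that correction (adjusted p 0.316).

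Glutamate receptors were mixed, with 7 of 24 higher in PL and 4 higher in IL, beside 9.97% and 8.7% of all genes. Besides Grm8, at 60.7, 79.99 and 79.1 CPM in PL and 29.8, 28.99 and 26.2 CPM in IL, the Gi-coupled receptors Grm2 and Grm3 were higher in PL (log2 fold change 0.798, adjusted p 0.00217 and log2 fold change 0.58, adjusted p 0.00185). Grm4, of the same presynaptic class as Grm8, was higher in IL, at 23.2, 17.9 and 21.4 CPM in PL and 42.1, 46.4 and 39.2 CPM in IL (log2 fold change −1.03, SE 0.146, adjusted p 0.000114). Among NMDA receptor subunits, Grin2a was higher in PL, at 749, 813 and 867 CPM against 508, 487 and 633 CPM (log2 fold change 0.58, SE 0.117, adjusted p 0.00216), and Grin2c was higher in IL, at 26.6, 20.03 and 29.1 CPM against 45.1, 45.7 and 53.2 CPM (log2 fold change −0.93, SE 0.164, adjusted p 0.000706). The obligatory subunit Grin1 and Grin2b were not called (log2 fold change −0.25, adjusted p 0.155 and log2 fold change 0.204, adjusted p 0.119). Of AMPA receptor subunits, Gria4 had log2 fold change 0.62, adjusted p 0.007798 and Gria1 log2 fold change −0.33, adjusted p 0.0258, the latter ending without IL library 1 or 2 or PL library 2 or 3 (adjusted p up to 0.103). The kainate receptor subunit Grik4 had log2 fold change 0.78, adjusted p 0.00223.

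Among 50 voltage-gated channel genes, 12 were called higher in PL and 6 in IL (median 0.01), beside 9.97% and 8.7% of all genes. Of the 18 calls 12 held in every alternative (toward IL, 3 without IL library 1 or 2 or PL library 2 or 3). Kcnh7, an ERG-type potassium channel, was at 423, 492 and 473 CPM in PL and 231, 196 and 261 CPM in IL (log2 fold change 1.01, SE 0.152, adjusted p 0.000294). Kcnc2, a fast delayed rectifier of the Kv3 group, was at 140.5, 166 and 171 CPM and 85.8, 76.7 and 88.5 CPM (log2 fold change 0.93, SE 0.122, adjusted p 5.81e-05). Kcnv1 and Kcnt2, a silent subunit and a sodium-activated channel, had log2 fold change 0.96, adjusted p 0.000679 and log2 fold change 0.83, adjusted p 0.00115. The sodium-activated channels went opposite ways, since Kcnt1 was at 115, 111 and 117 CPM in PL and 224, 192 and 204 CPM in IL (log2 fold change −0.85, SE 0.164, adjusted p 0.00214). The T-type calcium channel Cacna1h was higher in IL as well (log2 fold change −1.13, adjusted p 0.000986), and the sodium channel beta subunit Scn4b, which striatal neurons express strongly, was at 109, 38.3 and 55.8 CPM in PL and 279, 263 and 201 CPM in IL (log2 fold change −1.88, adjusted p 0.0194; the call ended without IL library 1 or 2 or PL library 2 or 3, with adjusted p up to 0.0676). Of 4 neurofilament genes Nefl was called higher in PL (log2 fold change 0.700, adjusted p 0.000495).

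Axon guidance genes were called mostly toward IL, but the split changed with the GC correction. Of 45 semaphorin, plexin, slit, robo and netrin genes 17 were called higher in IL and 3 in PL (median −0.31), and after the GC correction 7 and 8 were (median −0.203). The count toward IL was 9 to 11 without IL library 2 or 3 or PL library 2, and the count toward PL was 6 with the replicate block. Plxnd1, a receptor of class 3 semaphorins, was at 41.9, 42.2 and 54.1 CPM in PL and 85.6, 93.9 and 120.0 CPM in IL (log2 fold change −1.12, SE 0.141, adjusted p 4.34e-05), and a log2 fold change of −0.74 after the correction (adjusted p 0.000223). Plxnb1, Plxnb2 and Plxnb3, the class B plexins, had log2 fold changes of −0.86, −0.86 and −0.94 and held in every alternative (adjusted p up to 0.002902, 0.00273 and 0.04698). The secreted ligands Sema3c and Sema3d were higher in PL, Sema3d at 18.98, 22.02 and 15.6 CPM against 7.83, 10.03 and 8.39 CPM (log2 fold change 1.104, SE 0.185, adjusted p 0.000473). Sema3f was higher in IL (log2 fold change −1.200, adjusted p 0.000913). The calls of the 13 other guidance genes ended under at least 1 alternative (adjusted p up to 0.417).

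Cell adhesion genes gave calls in both directions. Of 24 cadherins and delta-protocadherins 9 were higher in PL and 4 in IL (median 0.200). Cdh11 was at 177, 203 and 191 CPM in PL and 98.9, 80.6 and 82.6 CPM in IL (log2 fold change 1.12, SE 0.116, adjusted p 4.52e-06). Pcdh10 was at 453, 504 and 485 CPM and 288, 257 and 264 CPM (log2 fold change 0.84, SE 0.109, adjusted p 5.69e-05). Cdh10 had log2 fold change 0.91, adjusted p 0.000126. Toward IL, Pcdh8, an activity-regulated protocadherin, and Cdh24 had log2 fold change −0.87, adjusted p 0.00212 and log2 fold change −1.100, adjusted p 0.00331. Summed over the 24 genes the level was 2798 to 2828 CPM in PL and 2156 to 2213 CPM in IL. Of 21 Eph receptor and ephrin genes tested 3 were called each way, beside 9.97% and 8.7% of all genes, with Ephb6 (log2 fold change 0.89, adjusted p 0.00361) and Epha4 (log2 fold change 0.56, adjusted p 0.00334) toward PL and Efnb3 (log2 fold change −0.88, adjusted p 0.0002500) toward IL in every alternative. Of 11 perineuronal net genes, Hapln4, a link protein, was higher in PL (log2 fold change 0.76, adjusted p 0.003202), and the chondroitin sulphate proteoglycans Bcan and Vcan were higher in IL (log2 fold change −0.68, adjusted p 0.000564 and log2 fold change −0.54, adjusted p 0.00291), each in every alternative.

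Immediate early genes, transcribed within minutes to hours of neuronal activity, did not shift together 2 h after training. Of 41, 9 were called higher in IL and 5 in PL (median −0.21), beside 8.7% and 9.97% of all genes. After the GC correction 5 and 5 were called (median −0.07). Without correction, the count toward IL was 5 without IL library 2 or 3 or PL library 2. Fosl2, an AP-1 subunit, was at 79.7, 70.5 and 85.5 CPM in PL and 125, 129 and 140.4 CPM in IL (log2 fold change −0.74, SE 0.108, adjusted p 0.000147). Fosb was at 34.3, 28.1 and 28.98 CPM in PL and 45.6, 48.3 and 45.3 CPM in IL (log2 fold change −0.61, SE 0.128, adjusted p 0.00287). Sik1, a kinase that restrains CREB coactivators, had log2 fold change −0.95, adjusted p 0.000675, and Btg2, an antiproliferative factor, log2 fold change −0.77, adjusted p 0.00258. Toward PL, Ptgs2, the inducible cyclooxygenase of excitatory neurons, was at 34.9, 44.5 and 47.8 CPM in PL and 17.7, 23.6 and 25.9 CPM in IL (log2 fold change 0.92, SE 0.163, adjusted p 0.000767). Ier5 had log2 fold change 0.71, adjusted p 0.00655. Bdnf, the activity-induced neurotrophin, was at 45.2, 57.9 and 51.8 CPM in PL and 24.9, 22.2 and 34.99 CPM in IL (log2 fold change 0.91, SE 0.197, adjusted p 0.00428), and a log2 fold change of 0.68 with adjusted p 0.0548 after the GC correction. Fos itself was at 24.6, 22.5 and 24.3 CPM in PL and 27.5, 35.6 and 32.7 CPM in IL (log2 fold change −0.43, adjusted p 0.0343), a call that ended without IL library 2 or 3 or PL library 1, 2 or 3, after the GC correction or after the GC correction with the block (adjusted p up to 0.164, and 0.108 after the GC correction). Arc, Npas4, Egr1 and Nr4a1, further standard activity markers, were not called (log2 fold changes −0.19, −0.28, 0.29 and −0.44; adjusted p 0.615, 0.427, 0.134 and 0.0555). With the replicate block Nr4a1 was called (adjusted p 0.0177), and after the GC correction Egr1 was (0.0376, higher in PL).

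The series title names Srebf1, the transcription factor of fatty acid synthesis, and Phgdh, the first enzyme of serine synthesis, so these pathways were read for the region difference. Srebf1 was at 18.5, 17.6 and 20.5 CPM in PL and 46.1, 44.6 and 44.5 CPM in IL, more than 2-fold higher in IL (log2 fold change −1.26, SE 0.151, adjusted p 2.68e-05); its exons overlap Rai1. Of 22 genes of the fatty acid pathway 5 were called higher in IL and 2 in PL (median −0.17). Of all genes, 8.7% and 9.97% were. After the GC correction 2 and 2 of the 22 were called. Without correction, the count toward IL was 1 to 3 without IL library 2 or 3 or PL library 1, 2 or 3. The synthesis enzymes that SREBP1 is known to drive, Fasn, Acaca, Scd1 and Acly, were not called (log2 fold changes −0.26, 0.22, 0.19 and 0.06; adjusted p 0.148, 0.121, 0.319 and 0.711). Me1, malic enzyme, and Elovl6, a fatty acid elongase, were higher in PL (log2 fold change 0.67, adjusted p 0.000367 and log2 fold change 0.49, adjusted p 0.00627). Phgdh was at 20.3, 21.8 and 21.1 CPM in PL and 34.5, 37.5 and 40.9 CPM in IL (log2 fold change −0.84, SE 0.146, adjusted p 0.000645). The next enzymes, Psat1 and Psph, were not called (log2 fold change −0.15, adjusted p 0.389 and log2 fold change −0.57, adjusted p 0.0592). Of 16 genes of serine and one-carbon metabolism 4 were higher in IL and 1 in PL. Cbs, cystathionine beta-synthase, and Gldc, glycine decarboxylase, which astrocytes express, had log2 fold change −0.703, adjusted p 0.00291 and log2 fold change −0.69, adjusted p 0.00214 and held in every alternative. Of the 18 astrocyte markers 12 had negative fold changes (median −0.11). Their summed level was 7752 to 8386 CPM in PL and 6933 to 7389 CPM in IL, a sum carried by Slc1a2. Without Slc1a2, the member called higher in PL, it was 2253, 2185 and 2139.7 CPM in PL and 2276, 2712 and 2472 CPM in IL. The highest PL library was then close to the lowest IL library. On the list score of all 18 markers the groups overlapped, with PL library 1 at −0.008 and IL library 1 at −0.032. The part of these levels in the differences of Srebf1, Phgdh, Cbs and Gldc was not tested.

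Cholesterol genes went the other way from Srebf1. Of 22 genes of cholesterol synthesis and uptake 9 were called higher in PL and 1 higher in IL (median 0.24), and 9 and 0 after the GC correction (median 0.34). Hmgcs1, which makes the precursor HMG-CoA (ENSMUSG00000093930, chromosome 13, 119690379 to 119708260; overlapping Gm48342), was at 317, 368 and 315 CPM in PL and 167, 176 and 177 CPM in IL (log2 fold change 0.94, SE 0.119, adjusted p 4.34e-05). Idi1, Msmo1 and Sc5d, later enzymes, also held in every alternative (log2 fold changes 0.698, 0.497 and 0.53). The summed level of the list was 1400.4, 1594 and 1595 CPM in PL and 1099.7, 1168 and 1231 CPM in IL. Srebf2, the factor of this pathway, was not called (log2 fold change −0.18, adjusted p 0.277). A sterol response element, searched as TCACNCCAC on both strands of the 250 bases before the start, was in 1 of 19 promoters of the list (5.26%; 16 of 22 genes had a promoter) and in 1.05% of all promoters. That promoter belongs to the gene with the smallest p of the list and is shown 5′ to 3′ with the match in capitals.
Hmgcs1 (chr13:119690101-119690350, + strand): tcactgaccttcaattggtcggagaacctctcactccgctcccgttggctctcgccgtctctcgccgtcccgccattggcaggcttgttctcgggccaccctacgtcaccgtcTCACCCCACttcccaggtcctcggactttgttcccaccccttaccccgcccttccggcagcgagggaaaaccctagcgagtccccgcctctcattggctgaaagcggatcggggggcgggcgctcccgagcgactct

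Few genes of broadly expressed sets were called. Of 72 cytosolic ribosomal protein genes 0 were called higher in PL and 1 in IL (median 0.00), and of 80 tested nuclear genes of oxidative phosphorylation 2 and 0 (median 0.14). Fold changes were positive for 37 of the first and 57 of the second set, beside 47.7% of all genes. Among structural RNAs, Rn7s6, a signal recognition particle RNA with near-identical copies that make its counts uncertain, was at 0, 1.05 and 2.54 CPM in PL and 18.2, 9.41 and 7.32 CPM in IL (log2 fold change −3.19, SE 0.658, adjusted p 0.00567). Mitochondrially encoded genes had 0 counts in every library and gave no measure of RNA quality.

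The same region difference was measured in the 6 separate libraries of Dex-treated mice, where 1469 genes (7.34%) were called, 761 (3.8%) higher in PL and 708 (3.54%) higher in IL, and 783 without IL Dex library 2. Of the 3737 genes called after saline, 3507 (93.8%) had the same sign after Dex, beside 69.5% of all genes tested. Called in the same direction in both were 1105 genes, which is 29.6% of the saline calls and 75.2% of the Dex calls. Neurod6 was at 76.3, 59.2 and 108 CPM in PL and 29.8, 22.8 and 22.97 CPM in IL after Dex (log2 fold change 1.698, adjusted p 1.11e-05), and Deptor at 69.9, 62.6 and 69.3 CPM and 31.9, 27.9 and 28.04 CPM (log2 fold change 1.204, adjusted p 1.11e-05). Striatal markers again gave 13 calls toward IL and 0 toward PL, septal markers 6 and 0, olfactory and neuroblast markers 7 and 0, and the shared glutamatergic markers 6 toward PL and 0 toward IL. Cilia genes gave 5 calls toward IL after Dex, and the guidance genes 8 toward PL and 4 toward IL.

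No gene had a region difference that depended on Dex at an adjusted p under 0.05 (edgeR interaction term; smallest adjusted p 0.716), nor in DESeq2, while 1347 genes (6.73%) had an unadjusted p under 0.05. Leaving out PL Dex library 3 gave 144 such genes. For single genes the 2 contrasts could still read differently: the log2 fold change of Rxfp2 was 3.08 after saline and 1.501 after Dex (adjusted p 0.264), Gfap −1.002 and −0.39 (0.145), Npy1r 0.67 and 0.14 (0.696), and Srebf1 −1.26 and −0.51 (0.0405). In edgeR, none of these 4 genes passed the test of a difference between the contrasts (interaction adjusted p 0.739, 0.716, 0.716 and 0.716 for them in that order).

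**Figure D4:**
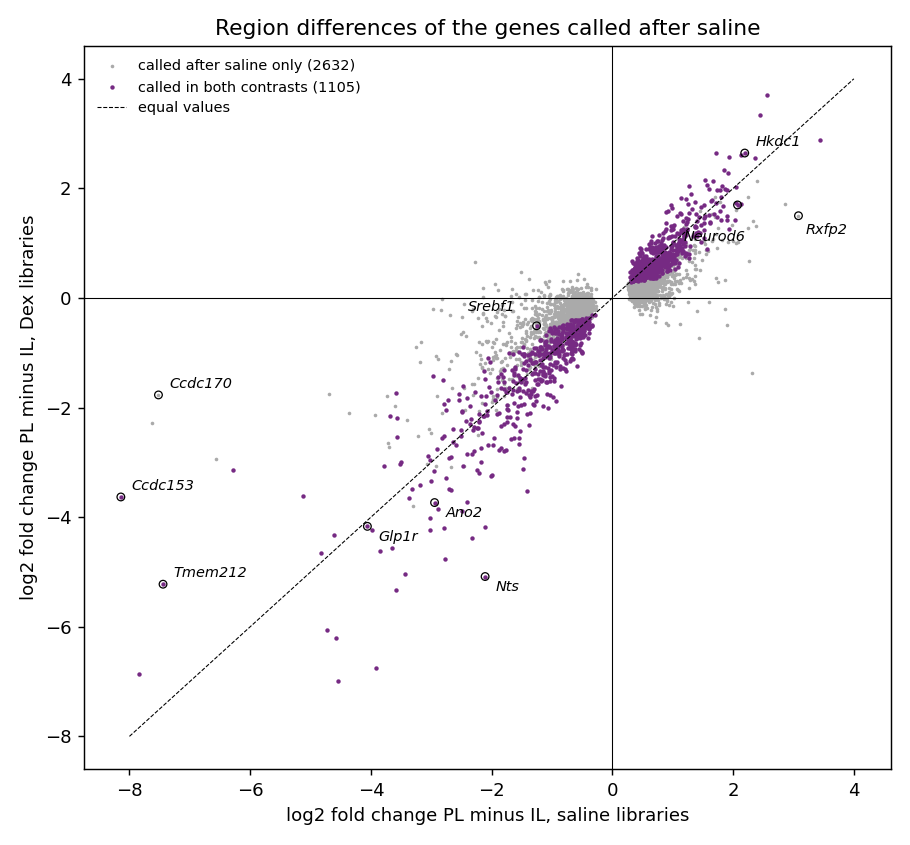
Log2 fold change of PL minus IL in the saline libraries (horizontal) and in the Dex libraries (vertical) for the 3737 genes called after saline. Purple points are the 1105 genes also called after Dex and the dashed line marks equal values; most points lie where both values have the same sign.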

How the data were processed

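PolyA RNA of PL and IL tissue was sequenced in 12 libraries, 3 per region and treatment. The authors deposited raw read counts per gene, made with featureCounts 2.0.1 on read pairs, exons summed by gene and without strand, against GRCm38 Ensembl release 98, per the file headers. The submitters' processing notes name bcl2fastq, Trim Galore, HISAT2, SAMtools 1.8 and, as the build, mm39. Coordinates printed here are those of GRCm38 in the file. Each library's column was matched to its title, and 12 further count columns matched no sample and were not used. Libraries of a number share a number for the batch in the labels, which is where the pairing comes from. The deviations of PL and IL libraries of one number from their group means correlated at 0.122, 0.0228 and 0.352 over genes of at least 5 CPM, and at −0.229 to 0.107 between different numbers.

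All 12 libraries were fitted together with edgeR 4.0.16 (R 4.3.3), TMM scaling, the default filter on low counts and the robust quasi-likelihood test, as 4 groups with 8 residual degrees of freedom. P-values were adjusted by Benjamini-Hochberg over 20015 genes at a threshold of 0.05. The contrast was PL minus IL after saline, beside the same contrast after Dex and their difference. The procedure was tested on simulated counts. No 2 libraries of a group agreed within sampling noise. The 13 alternatives were DESeq2 1.42.0, RLE size factors, no filter, the 6 saline libraries alone, a block for the replicate number, a lowess correction of each library for transcript GC content with and without the block, and each of the 6 saline libraries left out. SE is the log2 fold change divided by the square root of the F statistic. Counting intervals and floors cover counting error only. Promoter sequences are those of RefSeq on GRCm38.p6.

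Named genes were the 12 largest differences and the 6 smallest p-values in each direction, among called genes whose groups did not overlap, with at least 2 CPM in the higher group and no predicted name, then up to 6 called members of each gene list by p. Further list members, and the 4 genes compared between saline and Dex, were named with their values in view. Some list members are counted but not reported here by name. The gene lists and members were chosen with earlier results of these data known. Annotation is not used here beyond the file's own gene models and the reference's names and GC content.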

Additional observations from a re-analysis of the deposited data

How the results depend on the processing

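Of the 197 called genes chosen by the naming rule, 141 were past the threshold in each of the 13 alternatives that tested them. None changed direction. Genes dropped by the filter of an alternative were not tested there, Sstr5 and Otx2 among them. The count of 3737 genes was 4035 in DESeq2, 3726 with RLE size factors, 3952 with no filter, 4849 with the 6 saline libraries alone and 2674 after the GC correction. Leaving out each saline library in turn gave 1842 (without PL library 2) to 3190 (without PL library 1), for 2-fold differences 566 to 1099 beside 912, and the count was 2367 without IL library 1, 2128 without IL library 2 and 2413 without IL library 3. After Dex the count of 1469 was 783 (without IL Dex library 2) to 1728 (without PL Dex library 2) on leaving out libraries, and 2355 after the GC correction with the replicate block. The dependence on Dex gave 0 to 144 genes (without PL Dex library 3) and 4 with no filter. A fit without 1 library also has fewer samples. In all of these the cause was not tested.

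With the replicate number as a block, which pairs PL and IL by batch, 4180 genes were called after saline, 3700 of them among the 3737, and 3342 with the GC correction added. Of the genes named, the block changed the calls of Slc17a7, Fa2h, Drd5, Nr4a1, Cplx3 and Cdhr1, as given beside them, and no other call. Depth limits the low genes: with 6867249 to 8847876 counts in the PL libraries, named genes with 3 counts or fewer in the PL group are given only as bounds or as ratios with their counting interval.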
